A study of Mus musculus with 9 samples.

Results

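The Rab genes encode small GTPases that label the membranes of a cell, and 54 of the 17097 genes read by the arrays belong to them. They were taken by symbol (Rab, a number and at most 1 letter in the platform annotation, with *Rab3a* left out). This rule uses no measured value, but the family was chosen with earlier results of these data known. RNA came from male C57Bl/6J mice aged 10 to 12 weeks, an inbred strain for which no altered allele is named, that received an intrastriatal injection and were perfused with saline before the brain tissue at the injected site was taken. There were 3 groups of 3 arrays, namely PBS taken at 4 d, LPS taken at 1 d (the induction phase) and LPS taken at 4 d (the resolution phase). LPS is a lipid of the bacterial outer membrane and a ligand of TLR4. The RNA of 3 mice was pooled for each array, so replicate arrays differ as pools do and not as single mice. No PBS array of 1 d was analysed here, and an effect of the time since surgery cannot be told apart from that of LPS at 1 d.

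A Rab protein switches between a GDP-bound form, held in the cytosol by GDI, and a GTP-bound form on a membrane. Exchange factors load GTP and so place the Rab on its compartment, effectors such as tethers and motor adaptors bind the loaded form and move or fuse the vesicle, and GTPase-activating proteins end the cycle. Each step of secretion, endocytosis, recycling and phagosome maturation has its own members. Neurons use many of them in synaptic and axonal transport, and phagocytes use the late endosomal members to mature the vacuoles in which engulfed material is degraded.

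Few Rab genes changed after LPS, and the changes were all rises. *Rab32*, which acts in the biogenesis of lysosome-related organelles, and *Rab20*, which acts in phagosome maturation, rose at both times compared to PBS, *Rab32* 7.52-fold at 1 d and 7.25-fold at 4 d from a PBS mean at background, and *Rab20* at least 1.68-fold and at least 1.75-fold from a PBS level below background. *Rab29*, which acts at the Golgi and on lysosomes and is a partner of the kinase LRRK2, rose 1.56-fold at 4 d. A gene counted as past the test when limma gave it an adjusted p under 0.05 (Benjamini-Hochberg, across the whole array) and its mean differed by 1.5-fold or more. At 1 d, 2 of 54 Rab genes passed in the higher direction, where 3.86% of all genes did, and 0 passed in the lower direction, where 0.532% of all genes did. At 4 d, 3 passed as higher and 0 as lower, with 4.21% and 0.205% of all genes called in those directions. Between LPS at 4 d and LPS at 1 d, 0 Rab genes passed in either direction, where 1.84% of all genes were called higher and 1.37% lower. The moderated F-test over the 3 groups called 3 Rab genes (*Rab32*, *Rab20* and *Rab29*) and 7.67% of all genes. The Rab counts are thus close to the share of all genes that was called higher at each time, and nothing particular to the family is read from them. The median log2 change of the 54 genes was -0.001 at 1 d and -0.036 at 4 d, against -0.027 and -0.024 over all genes. The comparisons at 1 d and at 4 d share the 3 PBS arrays.

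**Figure D1:**
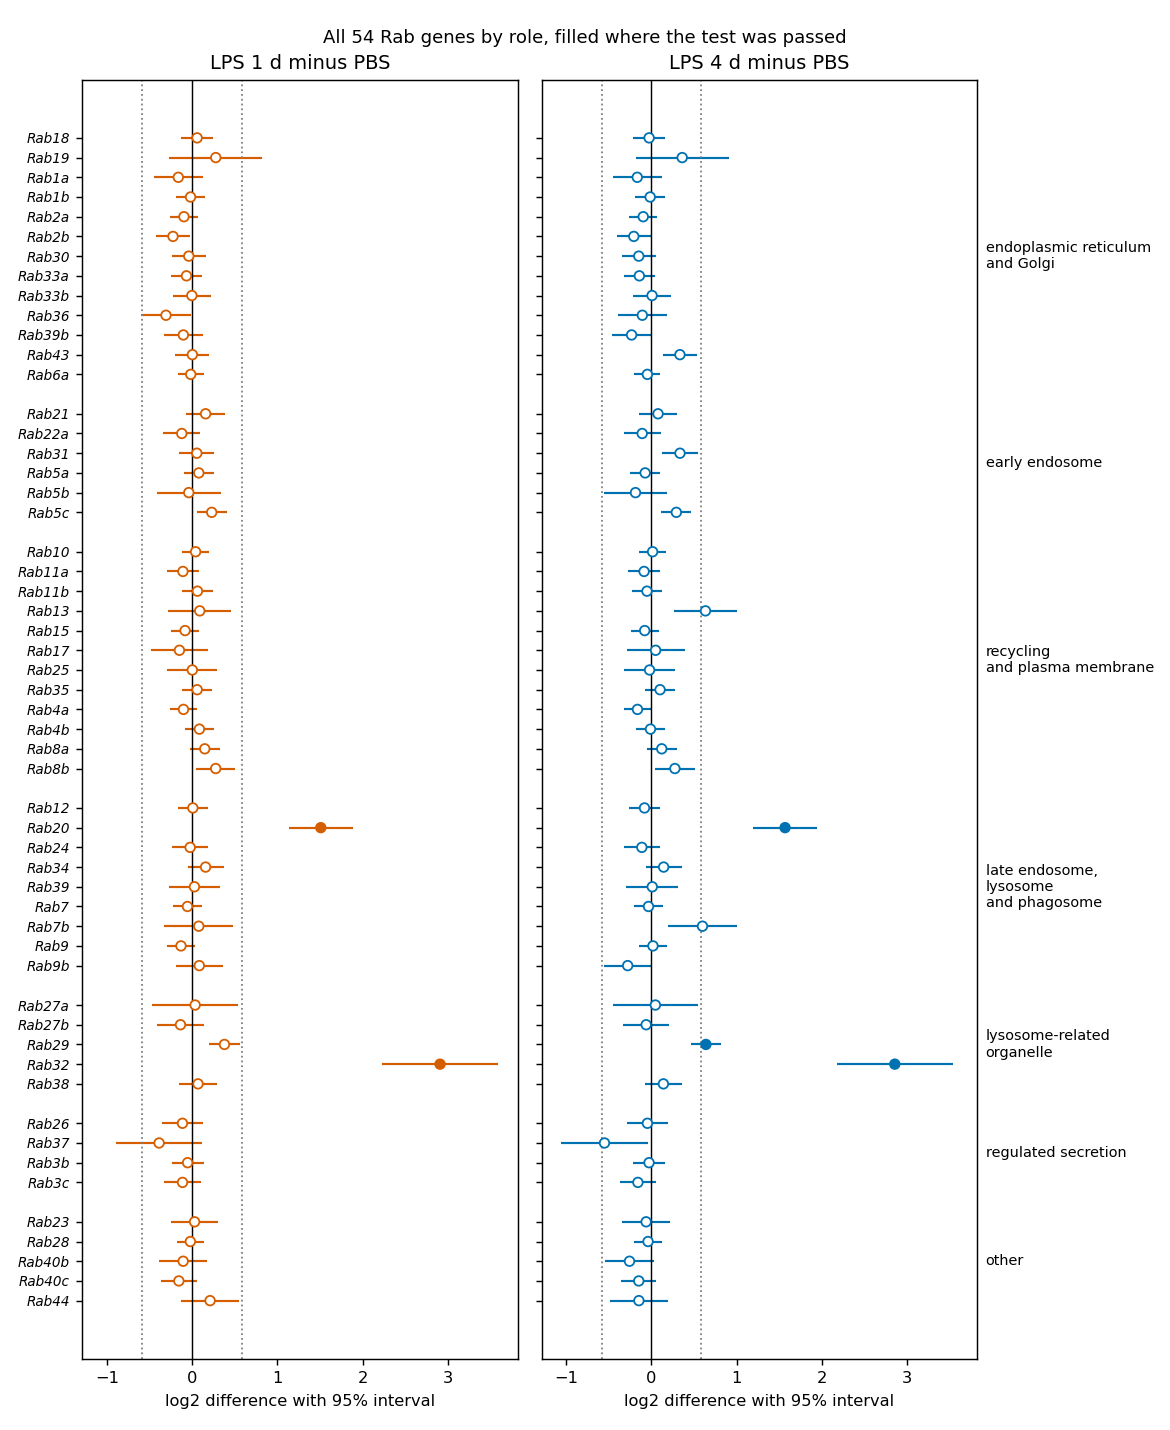
The difference in log2 expression between LPS and PBS is drawn for each of the 54 Rab genes at 1 d (left) and at 4 d (right), with the 95% interval from the limma fit as a line and the genes grouped by role. Dotted lines mark a 1.5-fold change in either direction, and filled points passed the test. *Rab32* and *Rab20* stand far to the right at both times, and *Rab29* is filled in the right panel. Of the open points, *Rab13* and *Rab7b* lie past the 1.5-fold line at 4 d (0.64 and 0.60), and *Rab37* is the lowest (-0.55).

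The promoters of the 3 genes that passed are shown because their transcript levels rose in the same tissue samples. Each is the RefSeq window of 300 bases in GRCm38.p6, from 250 bases before the transcription start to 50 bases after it, 5′ to 3′ on the strand of the gene, and capitals mark the motif matches described next. The windows are chr10:10558158-10558457 on the minus strand for *Rab32*, chr8:11478591-11478890 on the minus strand for *Rab20* and chr1:131867027-131867326 on the plus strand for *Rab29*.
Rab32: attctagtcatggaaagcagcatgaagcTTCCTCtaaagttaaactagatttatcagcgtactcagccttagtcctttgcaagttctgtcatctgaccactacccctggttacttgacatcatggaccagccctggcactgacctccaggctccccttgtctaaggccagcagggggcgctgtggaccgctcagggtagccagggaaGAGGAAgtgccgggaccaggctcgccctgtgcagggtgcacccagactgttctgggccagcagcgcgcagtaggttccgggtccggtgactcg
Rab20: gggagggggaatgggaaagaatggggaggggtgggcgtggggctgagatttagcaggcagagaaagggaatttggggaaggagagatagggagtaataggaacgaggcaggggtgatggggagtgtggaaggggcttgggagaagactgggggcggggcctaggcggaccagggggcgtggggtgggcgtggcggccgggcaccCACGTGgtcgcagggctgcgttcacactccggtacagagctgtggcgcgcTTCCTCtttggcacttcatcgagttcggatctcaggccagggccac
Rab29: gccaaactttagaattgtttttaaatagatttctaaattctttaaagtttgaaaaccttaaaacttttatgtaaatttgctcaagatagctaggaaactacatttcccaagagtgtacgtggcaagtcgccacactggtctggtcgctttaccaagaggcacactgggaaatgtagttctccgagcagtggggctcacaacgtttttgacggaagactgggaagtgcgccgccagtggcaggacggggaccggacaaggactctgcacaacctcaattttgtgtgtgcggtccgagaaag

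Letters for 6 motifs were searched on both strands. The core GAGGAA, part of the binding site of the myeloid factor PU.1, was found 2 times in the *Rab32* window, once on each strand, and 1 time in that of *Rab20* on the opposite strand. The E-box CACGTG was found 1 time in the *Rab20* window. No match overlapped another. The AP-1 letters TGANTCA, the interferon response letters GAAA, any 2 bases, GAAA, the STAT letters TTCNNNGAA and the NF-kB consensus had 0 matches in the 3 windows, and *Rab29* had 0 matches to any of the 6. Among 32851 promoter windows of this length, 28.3% hold GAGGAA, 7.15% CACGTG, 7.81% TGANTCA, 3.44% the interferon response letters, 8.30% TTCNNNGAA and 8.46% the NF-kB consensus. The G and C content was 57.3% for *Rab32*, 64.3% for *Rab20* and 45.3% for *Rab29*, against a median of 52.7% over all windows, and the 3 windows held 10, 16 and 12 CG pairs against a median of 7. These matches describe the letters of the windows and not the binding of a factor.

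*Rab32* was read by 1 probe set (Entrez gene 67844). Its log2 values were 3.52, 3.71 and 3.19 on the PBS arrays, 6.05, 6.62 and 6.48 at 1 d after LPS, and 6.84, 5.60 and 6.55 at 4 d after LPS. All 6 LPS arrays lay far above the 3 PBS arrays, and the LPS arrays of the 2 times overlapped, with LPS 4 d replicate 2 the lowest of the 6. In linear units this was 11.2 ± 1.99 for PBS, 84.6 ± 16.4 for LPS 1 d and 85.7 ± 33.9 for LPS 4 d (SD, n = 3 arrays per group). The log2 rise was 2.91 at 1 d (standard error 0.30, 95% interval 2.23 to 3.59, adjusted p = 0.000517 from limma) and 2.86 at 4 d (95% interval 2.18 to 3.54, adjusted p = 0.000662). From 1 d to 4 d it differed by -0.05 on the log2 scale, with an interval from -0.73 to 0.63 that also holds changes of 1.5-fold either way (adjusted p = 0.965). The PBS mean of 3.47 was at the level of background, taken as the highest mean log2 value (3.49) of 23 nonspecific control probe sets, although 2 of the 3 PBS arrays lay above it. With the PBS array that was below it set to that level, *Rab32* was 7.01-fold higher at 1 d and 6.76-fold higher at 4 d.

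*Rab38*, the closest relative of *Rab32* in the family and its partner in melanosome formation, did not pass. Its log2 values were 2.74, 3.06 and 2.93 after PBS, 2.93, 2.98 and 3.03 at 1 d and 3.00, 3.15 and 3.00 at 4 d, and the groups overlapped. All 9 values were below the background level, so a change in *Rab38* may not be visible on this probe set. The measured difference from PBS was 0.07 at 1 d (95% interval -0.15 to 0.29) and 0.14 at 4 d (-0.08 to 0.36).

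*Rab20* was also read by 1 probe set of its own (Entrez gene 19332), and another that is annotated to it together with a second gene was not used. The log2 values were 2.67, 2.81 and 2.71 after PBS, 4.10, 4.41 and 4.21 at 1 d, and 4.45, 3.89 and 4.57 at 4 d. No LPS array overlapped the PBS arrays, and LPS 4 d replicate 2 was again the lowest of the LPS arrays. The rise was 1.51 at 1 d (standard error 0.17, 95% interval 1.13 to 1.89, adjusted p = 0.000837) and 1.57 at 4 d (95% interval 1.19 to 1.95, adjusted p = 0.000734). The times differed by 0.06 (95% interval -0.32 to 0.44, adjusted p = 0.923). All 3 PBS arrays were below the background level, so the PBS level is only bounded from above. With each PBS array set to that level, *Rab20* was at least 1.68-fold higher at 1 d and at least 1.75-fold higher at 4 d.

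*Rab29*, listed in RefSeq with the synonym Rab7l1, had log2 values of 5.04, 5.19 and 5.19 after PBS, 5.51, 5.51 and 5.54 at 1 d, and 5.85, 5.70 and 5.80 at 4 d (1 probe set, Entrez gene 226422). The 3 groups did not overlap, and the order from low to high was PBS, LPS 1 d, LPS 4 d. At 1 d the difference from PBS was 0.38 (standard error 0.08, 95% interval 0.20 to 0.56, adjusted p = 0.0329), which passed on p but at 1.30-fold did not reach 1.5-fold. At 4 d the rise was 0.64 (95% interval 0.46 to 0.82, adjusted p = 0.00187), and 1.56-fold is close to the fold threshold. The difference of 0.26 between the times did not pass (95% interval 0.08 to 0.44, adjusted p = 0.172).

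**Figure D2:**
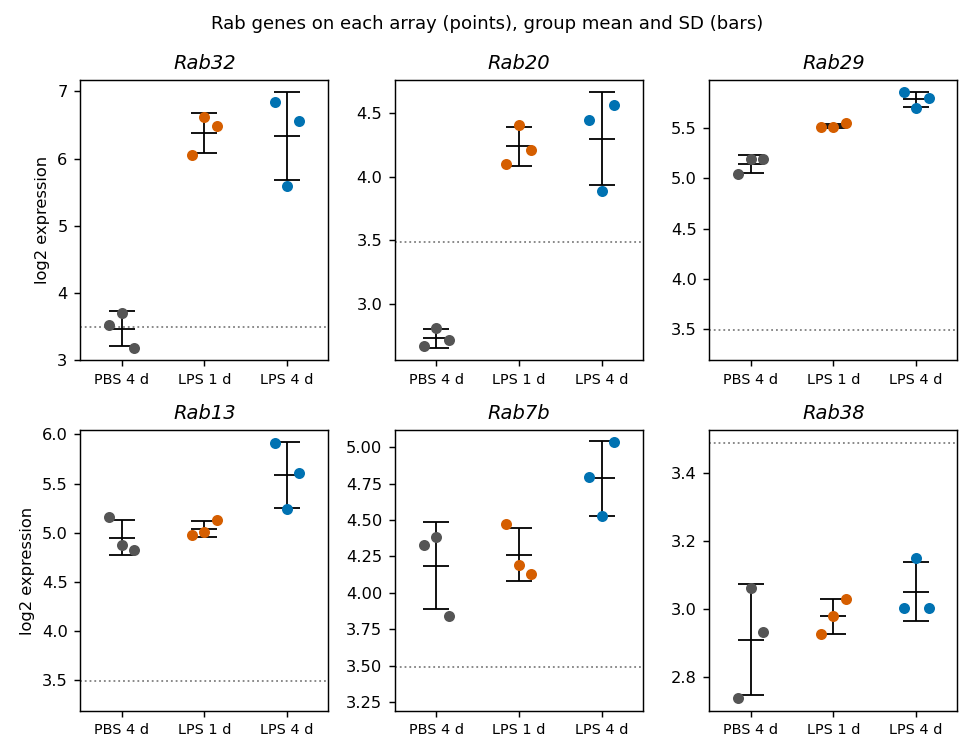
The log2 expression of 6 Rab genes is drawn for each array as a point, with the group mean and SD (n = 3 arrays) as bars and the background level of 3.49 as a dotted line. The LPS arrays of *Rab32* and *Rab20* lie apart from PBS at both times, *Rab29* has no overlap between its 3 groups, *Rab13* and *Rab7b*, which did not pass the test, have their 3 highest points at 4 d, and *Rab38* stays below the dotted line. Each panel has its own vertical scale, and levels are not comparable between genes.

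The arrays were made from whole tissue, in which more cells of a type and more RNA per cell cannot be told apart. The levels of cell type markers moved between the same groups as the Rab genes. Of 12 microglia and macrophage markers, 6 passed as higher and 2 as lower at 1 d, 11 passed as higher at 4 d, and their summed linear level was 1518 to 1611 on the PBS arrays, 2015 to 2426 at 1 d and 5387 to 6397 at 4 d, with none at background in all groups. Of 11 neutrophil markers, 6 passed as higher at 1 d and 1 did so at 4 d, and their sum was 108 to 193, 1595 to 4307 and 302 to 516, with *Camp*, *Elane* and *Mpo* at background in all groups. The sum for microglia and macrophages was 1.44 times the PBS mean at 1 d and 3.84 times at 4 d. That for neutrophils was 18.8 times and 2.55 times. The levels of *Rab32* and *Rab20* at 1 d and 4 d were close to each other, and some single markers also differed from their sum. From 1 d to 4 d, 11 of 12 microglia and macrophage markers rose, and *Itgam* did not pass (3.78-fold and 4.10-fold of PBS). Of the neutrophil markers, 3 fell and 8 did not pass, among them *Csf3r* (3.54-fold and 2.92-fold of PBS). Bright genes carry the microglia and macrophage sum and the neutrophil sum. *S100a8* (1180) and *S100a9* (1385) made most of the mean neutrophil sum of 2799 at 1 d. *Ctss* (1765) and *C1qa* (1253) were large parts of the mean microglia and macrophage sum of 6045 at 4 d. The median log2 change from PBS was 0.59 at 1 d and 1.85 at 4 d for microglia and macrophage markers, and 1.54 and 0.19 for neutrophil markers. LPS 4 d replicate 2, the lowest 4 d array for *Rab32*, *Rab20* and *Rab29*, was also the lowest of the 4 d arrays for both sums. The match is not particular to these lists. Replicate 2 was also the lowest 4 d array for the endothelial (827) and oligodendrocyte (5681) sums described next, and the highest for the neuronal sum (15015). For the astrocyte sum the lowest 4 d array was replicate 3 (6827). LPS 1 d replicate 2, the highest 1 d array for *Rab32* and *Rab20*, had the highest neutrophil sum and the lowest microglia and macrophage sum of its group. It also had the highest astrocyte sum (6571) and the lowest neuronal (15366) and endothelial (587) sums of the 1 d arrays. Its oligodendrocyte sum (5416) lay between those of the other 1 d arrays. The part of these cells in the Rab results was not tested.

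Of 8 astrocyte markers, 2 were higher at each time, with sums of 5914 to 6313 after PBS, 6526 to 6571 at 1 d and 6827 to 7433 at 4 d. These were *Gfap* (7.10-fold at 1 d and 5.64-fold at 4 d) and *Aqp4* (1.565-fold and 1.84-fold). *Aldoc* was the largest part of the astrocyte sum (3350 at 1 d, against 453 for *Gfap*). Of 8 endothelial markers, 3 passed as higher at 1 d and 4 did so at 4 d (sums of 618 to 623, 587 to 650 and 827 to 999). Of 7 oligodendrocyte markers, 3 were lower at 1 d and 0 passed at 4 d (6354 to 6483, 5356 to 5639 and 5681 to 6423). None of 11 neuronal markers passed at either time in limma (15820 to 15926, 15366 to 15779 and 14108 to 15015) and none was at background in all groups. The part of these cell types in the Rab results was not tested either.

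**Figure D3:**
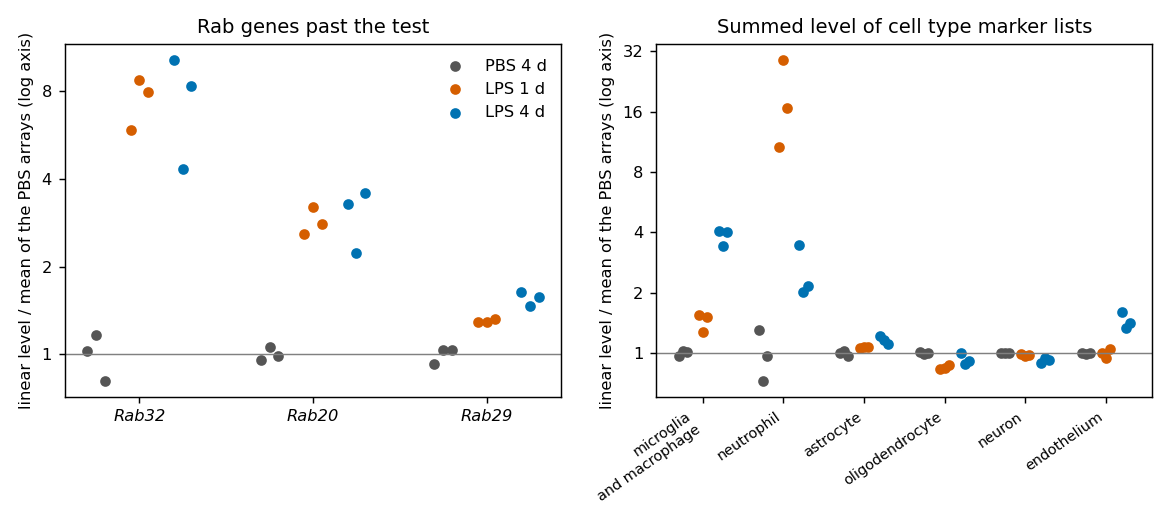
The linear level on each array, divided by the mean of the 3 PBS arrays, is drawn on a log axis for the Rab genes past the test (left) and for the summed level of 6 marker lists (right). *Rab32* and *Rab20* are at similar heights at 1 d and at 4 d. The neutrophil sum is highest at 1 d (18.8 times the PBS mean) and the microglia and macrophage sum at 4 d (3.84 times). Some single markers, not drawn alone, were also at similar levels at both times, such as *Itgam* (3.78-fold and 4.10-fold of PBS). Most of the neutrophil sum at 1 d came from *S100a8* and *S100a9*.

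Of the 5 genes placed with lysosome-related organelles and secretory lysosomes, *Rab32* was past the test at 1 d and *Rab32* and *Rab29* at 4 d. *Rab27a* and *Rab27b*, which dock melanosomes and secretory granules at the plasma membrane, differed from PBS by 0.03 and -0.14 at 1 d and by 0.05 and -0.06 at 4 d, and neither passed. *Rab27a* was at background in all groups, with PBS arrays from 2.47 to 3.51. The median log2 change of the 5 genes was 0.07 at 1 d and 0.14 at 4 d.

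The 9 genes of late endosomes, lysosomes and phagosomes (*Rab7*, *Rab7b*, *Rab9*, *Rab9b*, *Rab12*, *Rab20*, *Rab24*, *Rab34* and *Rab39*) had 1 member past the test at each time, *Rab20*. *Rab7*, the general late endosomal Rab that drives fusion with lysosomes, differed from PBS by -0.06 at 1 d and -0.03 at 4 d. *Rab7b*, which returns cargo from late endosomes to the Golgi, had log2 values of 4.33, 4.38 and 3.84 after PBS, 4.47, 4.19 and 4.13 at 1 d, and 4.79, 4.53 and 5.04 at 4 d. All 3 arrays at 4 d lay above all others. The difference from PBS at 4 d was 0.60 (standard error 0.18, 1.52-fold), and it did not pass (adjusted p = 0.124). A second probe set of *Rab7b*, at background on average, gave 0.68 at 4 d (adjusted p = 0.103). When both probe sets were averaged, the difference of 0.64 passed (adjusted p = 0.00421, against a range of 0.00421 to 0.298 over all settings tried). *Rab9b*, a relative of the late endosomal *Rab9*, had values of 7.23, 7.35 and 7.23 after PBS, 7.38, 7.35 and 7.32 at 1 d and 6.69, 7.11 and 7.16 at 4 d. Its 3 arrays at 4 d were below all others, and the difference was -0.28 against PBS and -0.36 against 1 d (adjusted p = 0.302 and 0.229). The median change of the 9 genes was 0.03 at 1 d and 0.01 at 4 d.

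The 12 genes of recycling endosomes and of traffic to the plasma membrane (*Rab4a*, *Rab4b*, *Rab8a*, *Rab8b*, *Rab10*, *Rab11a*, *Rab11b*, *Rab13*, *Rab15*, *Rab17*, *Rab25* and *Rab35*) had none past the test in limma at either time. *Rab13*, which delivers junction proteins to the cell surface in epithelium and endothelium, was nearest at 4 d. Its values were 5.16, 4.87 and 4.82 after PBS, 4.98, 5.01 and 5.13 at 1 d, and 5.91, 5.24 and 5.60 at 4 d. The 4 d arrays were all above the PBS and 1 d arrays, with replicate 2 the lowest of the 3. The difference from PBS was 0.64 (standard error 0.16, 95% interval 0.27 to 1.00, 1.55-fold), which reached the fold threshold and missed that on p (adjusted p = 0.0757). Without LPS 4 d replicate 2 it was 0.81 and passed (adjusted p = 0.0158, with a range of 0.0158 to 0.215 over all settings), as did the difference of 0.72 from 1 d (adjusted p = 0.0387, range 0.0387 to 0.342). *Rab8b*, a Rab of traffic from the Golgi to the plasma membrane, differed from PBS by 0.28 at both times (adjusted p = 0.228 at 1 d and 0.219 at 4 d), with values of 8.31, 8.31 and 8.49 after PBS and between 8.45 and 8.75 on the LPS arrays. The median change of the 12 genes was 0.05 at 1 d and 0.002 at 4 d, and *Rab17* and *Rab25*, known from epithelium, were at background in all groups.

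Among the 6 genes of early endosomes (*Rab5a*, *Rab5b*, *Rab5c*, *Rab21*, *Rab22a* and *Rab31*), 0 passed at either time. *Rab5c*, 1 of 3 isoforms of the Rab that fuses early endosomes, had values of 8.95, 8.86 and 8.97 after PBS, 9.18, 9.14 and 9.14 at 1 d and 9.32, 9.13 and 9.21 at 4 d. The LPS arrays were all above the PBS arrays, by 0.23 at 1 d (adjusted p = 0.185) and 0.29 at 4 d (adjusted p = 0.0848). The other 2 isoforms went no more than 0.19 in either direction, with *Rab5a* at 0.08 and -0.07 and *Rab5b* at -0.04 and -0.19. *Rab31*, a member of the same subfamily that also works at the Golgi, differed from PBS by 0.34 at 4 d (adjusted p = 0.0932).

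The 13 genes of the endoplasmic reticulum and Golgi form the biggest group (*Rab1a*, *Rab1b*, *Rab2a*, *Rab2b*, *Rab6a*, *Rab18*, *Rab19*, *Rab30*, *Rab33a*, *Rab33b*, *Rab36*, *Rab39b* and *Rab43*), and 0 passed. At each time 10 of 13 had a measured difference below 0, and the median was -0.04 at 1 d and -0.10 at 4 d. This count includes *Rab1a*, which was at background, and at 1 d *Rab33b* (-0.004), *Rab6a* (-0.02) and *Rab1b* (-0.02). Of all genes, 43.4% lay above 0 at 1 d and 44.4% at 4 d. *Rab2b*, which acts between the endoplasmic reticulum and the Golgi, differed by -0.23 at 1 d and -0.21 at 4 d (adjusted p = 0.264 and 0.299), with values of 6.01, 6.26 and 6.26 after PBS and between 5.87 and 6.00 on the 6 LPS arrays. *Rab36*, a Golgi Rab, differed by -0.31 at 1 d (adjusted p = 0.287) and -0.11 at 4 d. A second *Rab36* probe set above background gave -0.32 and -0.29 (adjusted p = 0.0912 and 0.117 in limma), with all LPS arrays below PBS at both times. A dimmer probe set of the gene gave -0.35 and -0.14, and its LPS and PBS arrays overlapped. *Rab43*, another Golgi Rab, had values of 5.46, 5.57 and 5.61 after PBS, 5.67, 5.48 and 5.49 at 1 d and 5.93, 5.79 and 5.92 at 4 d. All 3 of its 4 d arrays lay above the rest, by 0.34 against PBS (adjusted p = 0.0816) and 0.33 against 1 d (adjusted p = 0.110). *Rab19*, also of the Golgi, was at background in all groups and differed by 0.28 at 1 d and 0.36 at 4 d (standard error 0.24). *Rab1a*, a central Rab of this step, was represented by a probe set at background, so its level was not measured here.

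The 4 genes of regulated secretion (*Rab3b*, *Rab3c*, *Rab26* and *Rab37*) all had measured differences below 0 at both times, and 0 passed. Most genes of the arrays also lay below 0, as 43.4% of all genes lay above 0 at 1 d and 44.4% at 4 d. *Rab37*, a Rab of secretory granules, had the lowest difference of all 54 genes, -0.39 at 1 d and -0.55 at 4 d (adjusted p = 0.456 and 0.268). Its values were 3.66, 3.54 and 3.46 after PBS, 3.06, 3.36 and 3.07 at 1 d and 2.41, 3.21 and 3.39 at 4 d, so PBS lay around the background level and both LPS groups below it. Without LPS 4 d replicate 1 the 4 d difference was -0.25, and with both of its probe sets averaged it was -0.20. The synaptic vesicle members *Rab3b* and *Rab3c* differed from PBS by -0.05 and -0.11 at 1 d and by -0.03 and -0.16 at 4 d. Further *Rab3c* probe sets above background gave -0.15 to -0.35 at 1 d and -0.16 to -0.20 at 4 d, and none passed.

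The remaining 5 genes have other roles or roles less well defined (*Rab23*, *Rab28*, *Rab40b*, *Rab40c* and *Rab44*), and 0 of them passed. *Rab40b*, which carries a SOCS box and recruits a ubiquitin ligase, differed by -0.11 at 1 d and -0.26 at 4 d (adjusted p = 0.750 and 0.360). *Rab44* was at background in all groups, and its difference of 4 d from 1 d was -0.36 (adjusted p = 0.352).

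The width of the intervals sets how large an unseen change in the whole tissue signal could be for the genes that did not pass. It does not bound a change within 1 cell type. At 1 d, 49 of 52 such genes had a 95% interval that lay within a 1.5-fold change in both directions, and the intervals of *Rab19*, *Rab36* and *Rab37* reached further. At 4 d this held for 47 of 51, with *Rab7b*, *Rab13*, *Rab19* and *Rab37* reaching further, and between the times for 47 of 54. The measured differences were under 0.2 on the log2 scale for 44 of the 52 genes at 1 d and 39 of the 51 at 4 d. At an unadjusted p under 0.05 from limma, with any fold change, 5 Rab genes were higher and 2 lower at 1 d, 9 higher and 5 lower at 4 d, and 5 higher and 2 lower between the times. Of all genes, 9.4% were higher and 8.43% lower at this threshold at 1 d, 10.6% and 7.07% at 4 d, and 9.18% and 7.12% between the times. There were 8 members with a mean at or below background in all groups (*Rab1a*, *Rab17*, *Rab19*, *Rab25*, *Rab27a*, *Rab38*, *Rab39* and *Rab44*), and for these the intervals limit only the measured signal. By the mean over the 9 arrays, 9 of 54 Rab genes and 31.3% of all genes lay at or below this level.

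For 26 of the 54 genes the arrays carried further probe sets, 44 in all. Of these, 0 passed the test in any of the 3 comparisons in limma, and their log2 differences ranged from -0.41 to 0.62 at 1 d and from -0.57 to 0.68 at 4 d. The call was the same as that of the representing probe set in each case, and the sign was opposite for 19 of the 44 at 1 d and 16 at 4 d. *Rab32*, *Rab20*, *Rab29* and *Rab13* were each read by a single probe set with their symbol alone, so no second probe set bears on them.

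Genes that act on Rab proteins were listed from textbook knowledge, and 130 of 145 could be analysed. At 1 d, 1 of the 130 was higher and 0 lower, and at 4 d 5 were higher and 0 lower, against the shares of 3.86%, 0.532%, 4.21% and 0.205% of all genes given above. Between the times 2 of 130 were higher and 0 lower, against 1.84% and 1.37% of all genes. The median log2 difference was -0.05 at 1 d and -0.03 at 4 d. The 7 genes of Rab prenylation and recycling, the 31 GTPase-activating proteins and the 9 subunits of the CORVET and HOPS tethers had 0 past the test in any comparison in limma. The 35 exchange factors had 1 at 4 d, and the 48 effectors had 1 at 1 d and 4 at 4 d.

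The exchange factor was *Rab3il1* (also called GRAB), which loads Rab8 with GTP. Its values were 4.46, 4.13 and 4.14 after PBS, 3.86, 4.32 and 4.42 at 1 d, and 5.52, 5.17 and 5.43 at 4 d. The PBS and 1 d arrays overlapped and the 4 d arrays were all higher, by 1.13 against PBS (standard error 0.17, 2.19-fold, adjusted p = 0.0053) and by 1.17 against 1 d (adjusted p = 0.00657).

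*Mlph* encodes melanophilin, the effector that ties Rab27a on melanosomes to the motor myosin Va. It had values of 2.45, 2.58 and 2.96 after PBS, 2.96, 2.90 and 2.85 at 1 d, and 4.31, 3.59 and 3.98 at 4 d. All PBS and 1 d arrays were below the background level and all 4 d arrays above it. The rise was 1.30 against PBS (standard error 0.18, adjusted p = 0.00427) and 1.06 against 1 d (adjusted p = 0.0186), and with the dimmer arrays set to the background level *Mlph* was at least 1.38-fold higher at 4 d than after PBS or at 1 d. *Rab27a*, whose product melanophilin binds, was at background in all groups. The difference of *Mlph* between the times lost its call without any single 1 d array and without LPS 4 d replicate 1 or 3, and the rise against PBS lost it when all probe sets of the gene were averaged, and with dim probe sets removed *Mlph* was not among the genes tested.

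*Lrrk1*, a kinase that phosphorylates Rab7, went from 4.32, 4.11 and 4.24 after PBS to 4.76, 4.19 and 4.69 at 1 d and 5.25, 5.03 and 5.35 at 4 d. It rose by 0.98 at 4 d (1.98-fold, adjusted p = 0.00764), and the difference of 0.33 at 1 d did not pass (adjusted p = 0.358). *Plekhm1*, which binds Rab7 and HOPS to bring lysosomes into contact with late endosomes and autophagosomes, had values of 6.61, 6.54 and 6.59 after PBS, 6.64, 6.75 and 6.55 at 1 d and 7.05, 7.08 and 7.39 at 4 d. It rose by 0.60 at 4 d (1.51-fold, adjusted p = 0.0140), just over the fold threshold. Its call was lost when each array was centred on its median, when all its probe sets were averaged, and without PBS replicate 2 or 3 or LPS 4 d replicate 3. *Micall2*, an effector of Rab13, was called at both times (adjusted p = 0.0476 at 1 d and 0.0465 at 4 d). Its values were 2.73, 2.65 and 2.46 after PBS, 3.44, 3.47 and 3.06 at 1 d and 3.62, 3.31 and 3.05 at 4 d, with all but 1 of them below the background level, so no size is given for its change. When 1 array was left out, its call was lost in 6 of 9 fits at 1 d and in 7 of 9 at 4 d. At 4 d it was kept when the array left out was replicate 3 of either LPS group. At both times the call was lost with centred arrays and with the ordinary linear model. With dim probe sets removed *Micall2* was not among the genes tested.

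**Figure D4:**
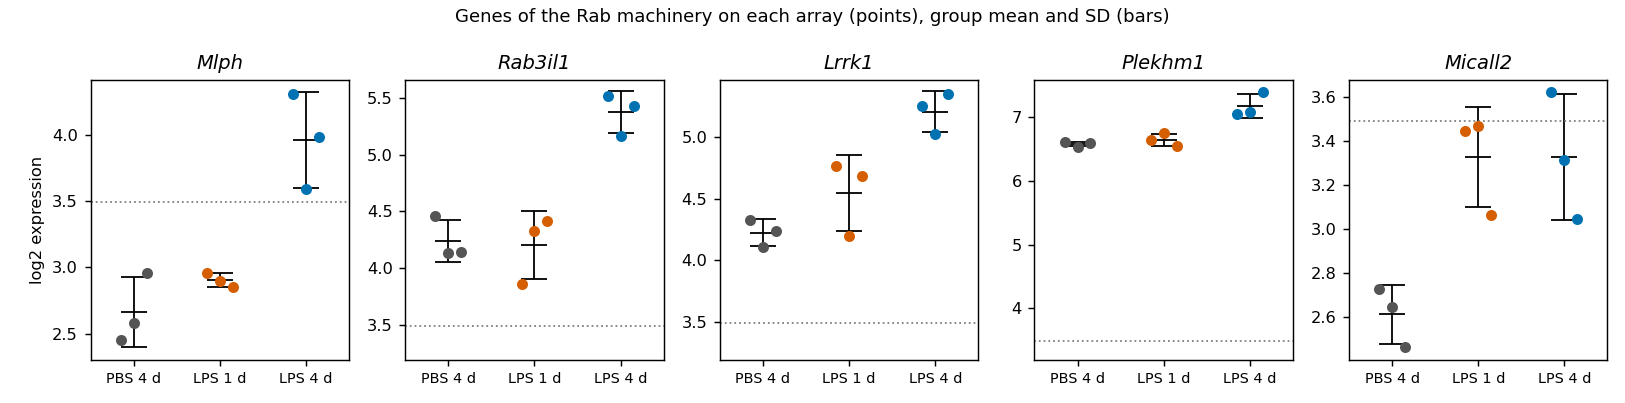
The log2 expression of the 5 genes of the Rab machinery that passed the test is drawn for each array as a point, with the group mean and SD (n = 3 arrays) as bars and the background level of 3.49 as a dotted line. *Mlph*, *Rab3il1*, *Plekhm1* and *Lrrk1* have their 3 highest points at 4 d, and *Micall2* lies at or below background with the exception of 1 array at 4 d. Each panel has its own vertical scale.

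*Mlph*, *Rab3il1*, *Lrrk1* and *Plekhm1* were higher at 4 d than after PBS, and markers of several cell types were too. These were 11 of 12 microglia and macrophage, 4 of 8 endothelial, 2 of 8 astrocyte and 1 of 11 neutrophil markers. Of the named machinery genes, only *Mlph* and *Rab3il1* passed as higher at 4 d than at 1 d. In that comparison 11 microglia and macrophage, 3 endothelial, 3 of 7 oligodendrocyte and 1 astrocyte markers were higher, and 3 neutrophil markers were lower. For *Mlph*, *Rab3il1* and *Lrrk1* the lowest 4 d array was LPS 4 d replicate 2, the array with the lowest microglia and macrophage sum at 4 d (5387), whereas for *Plekhm1* it was replicate 1. Replicate 2 was also the lowest 4 d array for the neutrophil, endothelial and oligodendrocyte sums and the highest for the neuronal sum. The part of any of these cell types in the changes of the machinery genes was not tested.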

How the data were processed

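RNA from brain homogenate was measured on 9 Affymetrix HT mouse genome arrays, 3 in each of 3 groups, each array holding RNA pooled from 3 mice. The authors labelled the RNA, scanned the arrays and processed them by RMA in Affymetrix Expression Console, and what they deposited is 1 log2 value for each probe set and array, already background corrected and normalized between arrays. The software version, slides and scan dates are not given here. Linear values are 2 raised to the deposited log2 value.

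After 104 control entries were left out, a linear model with a mean per group was fitted to all 45037 probe sets with limma 3.58.1 in R 4.3.3 (total degrees of freedom 9.02), and p values were corrected for all of them (Benjamini-Hochberg). Both thresholds, 0.05 on the adjusted p and 1.5 on the fold, are those of the study. Probe sets were named from the platform annotation (28898 with 1 symbol, 551 with several and 15588 with none), and a gene was read from the brightest (over the 9 arrays) of the probe sets annotated to it alone. The code was tested on simulated data. Array medians lay between 4.32 and 4.37, and the number of arrays limits the precision. Replicate spread is that of RNA pools.

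The Rab genes were grouped by role, and the lists of Rab machinery and cell type markers were written, from textbook knowledge. Members and lists were chosen with earlier results of these data known. Genes named are the Rab genes past the test, the 3 largest rises and falls among the others in each comparison, and up to 4 machinery genes per role past the test. *Rab1a*, *Rab5a*, *Rab5b*, *Rab7*, *Rab27a*, *Rab27b*, *Rab31*, *Rab38*, *Rab3b* and *Rab3c* were added after their values were seen. The bound on a fold against a group below background was also chosen after the values were seen. Promoter windows came from RefSeq (GRCm38.p6), which matched 43 of the 54 Rab genes. Tables and figures were made with Python 3.11.15, pandas 2.3.3 and matplotlib 3.10.9.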

Additional observations from a re-analysis of the deposited data

Results flagged for a closer look

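Of 130 genes of the Rab machinery, 2 were higher in the direct comparison of LPS 4 d with LPS 1 d in limma, where 1.84% of all genes were. Without a PBS array of 1 d, this comparison cannot tell a difference in the response to LPS from an effect of the time since surgery. *Rab3il1*, an exchange factor, was 1.17 higher at 4 d on the log2 scale (adjusted p = 0.00657), and all 3 arrays at 4 d lay above all 3 at 1 d. *Mlph*, an effector, was 1.06 higher (adjusted p = 0.0186), again on 3 of 3 arrays, and its 1 d arrays were all below the background level. With the ordinary linear model neither passed. *Rab3il1* passed in all other settings. *Mlph* also lost its call without any single 1 d array, without LPS 4 d replicate 1 or 3 and with all probe sets of a gene averaged. With dim probe sets removed it was not tested. Groups of 3 arrays were not tested for a single array that stands apart.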

How the results depend on the processing

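The Rab counts were recomputed with other variance models, filters, probe set rules, adjustments and fold thresholds and without each array in turn, and no named value that passed reversed its direction. Without single arrays, the Rab genes past the test numbered 2 for 1 d in every case, 3 to 4 for 4 d and 0 to 1 for the change between them, with 0 lower throughout, and 3 to 4 differed across the groups. The 1 between the times was *Rab13*, without LPS 4 d replicate 2. At least 2-fold left 2 Rab genes at 4 d, without *Rab29*. The F-test called 6 Rab genes with an intensity trend and robust hyperparameters and 5 with probe sets above the nonspecific controls only, against 3. *Rab13* at 4 d passed in both of these settings too (adjusted p = 0.0301 and 0.0441, in a range of 0.0158 to 0.215).

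Machinery genes higher at 1 d numbered 0 with centred arrays, with dim probe sets removed, with the ordinary linear model and at 2-fold, 2 with no minimum fold, and 0 to 1 without single arrays, where the count of 0 was seen without any single PBS array, without LPS 1 d replicate 1 or 2 and without LPS 4 d replicate 2. At 4 d, 3 were higher with centred arrays, with all probe sets of a gene averaged and with dim probe sets removed, 2 at 2-fold, and 3 to 5 without single arrays (3 without PBS replicate 2 or 3), and 1 was lower with no minimum fold. Between the times, 1 was higher with probe sets averaged, 0 with the ordinary model, 4 with no minimum fold, and 1 to 2 without single arrays (1 without any single LPS 1 d array, or without LPS 4 d replicate 1 or 3). Causes were not tested, other than that a stricter fold or a filter removes genes by construction.

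Replicate numbers are shared between the groups, and with the number as a replicate block the Rab counts were those without it (2 higher at 1 d, 3 higher at 4 d, 0 for 4 d against 1 d), and 3 rather than 2 machinery genes were higher between the times. Deviations of arrays with the same number correlated between -0.035 and 0.022, and those of arrays with different numbers between -0.034 and 0.044. No pairing by number was seen, but with 3 arrays per group this check cannot exclude one. Members at background cannot show a fall, and 3 arrays per group limit all comparisons.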
